A study of Mus musculus with 6 samples.

Results

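The trypsinogen cluster of mouse chromosome 6 is a row of closely related genes that encode trypsinogen, the inactive precursor of the digestive protease trypsin. The 10 members described here are Gm10334, Gm5771, Gm2663, 1810009J06Rik, Prss1, Prss3, Try10, Gm5409, Try4 and Try5, out of 44713 genes in the deposited table. They were chosen by gene symbol with the db/db and db/m values of the same libraries already known. The differences between the groups given below are therefore descriptions, and counts of members passing a threshold are no test of them. The transcripts were measured by RNA-seq of ribosomal RNA-depleted total RNA from islets of males of 10 weeks, 3 of them db/db and 3 db/m. The db/db mice carry a defective leptin receptor on both alleles (Lepr-/- in the sample labels) and become obese and diabetic. The labels call the db/m controls wild type and give C57BL/6 as the strain of all 6 mice, whereas the methods of the study give the BKS background for both groups. There the db/m mice are described as non-diabetic littermates of the db/db mice, and the study does not call them wild type. Islets were released with collagenase and enriched on a Histopaque gradient, and 1 library was made per mouse.

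Trypsinogen is made in the acinar cells of the exocrine pancreas and stored in zymogen granules. In the gut, enteropeptidase cuts it behind a lysine that follows a run of aspartates, and the trypsin set free activates more trypsinogen and the other pancreatic zymogens. Mice carry many copies of the gene inside the T cell receptor beta locus, and some are transcribed far more than others. Islets are embedded in acinar tissue, so that islet preparations can carry acinar RNA along.

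On GRCm38 (mm10, the build of the files) the members spanned chromosome 6 from 40964772 to 41463786, a distance of 499 kb. From the low to the high end they were ordered 1810009J06Rik, Gm2663, Try4, Try5, Try10, Prss3, Gm5771, Gm5409, Gm10334 and Prss1. Gm10334 lay on the minus strand from 41442214 to 41446097, and its neighbour Prss1 on the plus strand from 41458930 to 41463786. Prss3 (41373759 to 41377613, minus strand) and Gm5771 (41392356 to 41397256, plus strand) lay on the other side of Gm5409. RefSeq annotates 9 members with 5 exons and a coding sequence of 738 to 744 bases, while it lists Gm5409 as a pseudogene. The trypsinogen genes Prss2, just beyond Prss1, and 2210010C04Rik, between Gm2663 and Try4, are no members and served for comparison. Of the 36 other genes of the table annotated between the outermost members, 33 were T cell receptor beta segments, none with more than 6 counts in any library, and 2210010C04Rik was the 1 gene that passed the filter on low counts. The rest were the pseudogenes Gm2719, with 1 count in db/m mouse 1 alone, and Gm18964. Gm18964 had 0, 0 and 1 counts in db/db and 29, 3 and 29 in db/m mice.

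The part of the coding sequence on which trypsinogen activation depends differed between members, and is shown for 4 of them and for 2210010C04Rik. Capitals mark the run of aspartate codons and the lysine codon behind which enteropeptidase cuts, and each line gives 60 bases of the RefSeq coding sequence (GRCm38.p6, 5′ to 3′).
1810009J06Rik: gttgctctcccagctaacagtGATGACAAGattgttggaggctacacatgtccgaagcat
Gm5771: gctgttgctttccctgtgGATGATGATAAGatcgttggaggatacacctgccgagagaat
Gm10334: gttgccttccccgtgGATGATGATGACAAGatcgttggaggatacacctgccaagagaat
Try4: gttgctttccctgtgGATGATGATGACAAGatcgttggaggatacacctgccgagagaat
2210010C04Rik: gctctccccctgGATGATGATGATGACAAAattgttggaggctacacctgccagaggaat
The run held 4 aspartate codons in Try4, Try5, Try10, Prss1, Prss3, Gm10334 and Prss2, and 5 in 2210010C04Rik. It was shorter by 1 codon in Gm5771, with 3, and held 2 aspartate codons in 1810009J06Rik and Gm2663, whose 60 bases were identical. Prss3 had the same 60 bases as Gm10334, and Try5 and Prss1 the same as Try4.

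Several members form near-identical pairs. 1810009J06Rik and Gm2663 differed at 4 of 744 coding positions (99.5% identity), Gm10334 and Prss3 at 7 of 741 (99.1%), Gm5771 and Prss1 at 18 of 741 (97.6%), and Try4 and Try5 at 19 of 741 (97.4%). Stretches with differing positions are shown for the first 3 pairs. Only reads that cover a position at which the genes differ, in the coding sequence or outside it, can tell them apart. Each line gives 60 coding bases of the RefSeq sequence (GRCm38.p6, 5′ to 3′), chosen in each pair for the most differing positions outside gaps. Capitals mark the bases that differ between the genes of a pair.
Gm10334: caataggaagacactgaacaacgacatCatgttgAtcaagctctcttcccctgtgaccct
Prss3: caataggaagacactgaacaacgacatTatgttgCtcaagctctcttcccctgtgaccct
Gm5771: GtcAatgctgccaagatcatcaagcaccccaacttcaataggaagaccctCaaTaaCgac
Prss1: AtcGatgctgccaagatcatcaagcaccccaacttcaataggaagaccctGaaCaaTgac
Gm2663: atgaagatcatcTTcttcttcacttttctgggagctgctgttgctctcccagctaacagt
1810009J06Rik: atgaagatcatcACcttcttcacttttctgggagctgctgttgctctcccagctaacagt
The stretches begin at coding base 297 in Gm10334 and Prss3, at base 259 in Gm5771, at base 262 in Prss1, and at base 1 in Gm2663 and 1810009J06Rik.

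The sources used here do not give the read length, the program that counted the reads, or how reads that match several genes were treated. To show how far the members can be told apart, every stretch of 50 bases of each transcript was looked up in the other genes of the cluster. For 1810009J06Rik 83.8% of its stretches also occurred in Gm2663 and in no other gene of the cluster. For Gm10334 74.5% and for Prss3 74.2% of the stretches were shared with any other gene, mostly with each other. Only 2.56% of the stretches of Gm10334 and 3.67% of those of Prss3 also occurred in the abundant genes Try4, Try5, Prss2 or 2210010C04Rik. This share was 9.81% for Gm5771, 14.9% for Prss1 and 20.6% for Try10, and 0% for Gm2663 and 1810009J06Rik. With stretches of 100 bases it was 0% for each of these except Try10 (4.05%). The counts of a single member of a pair are therefore uncertain, and each pair is also given as a sum below.

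**Figure D1:**
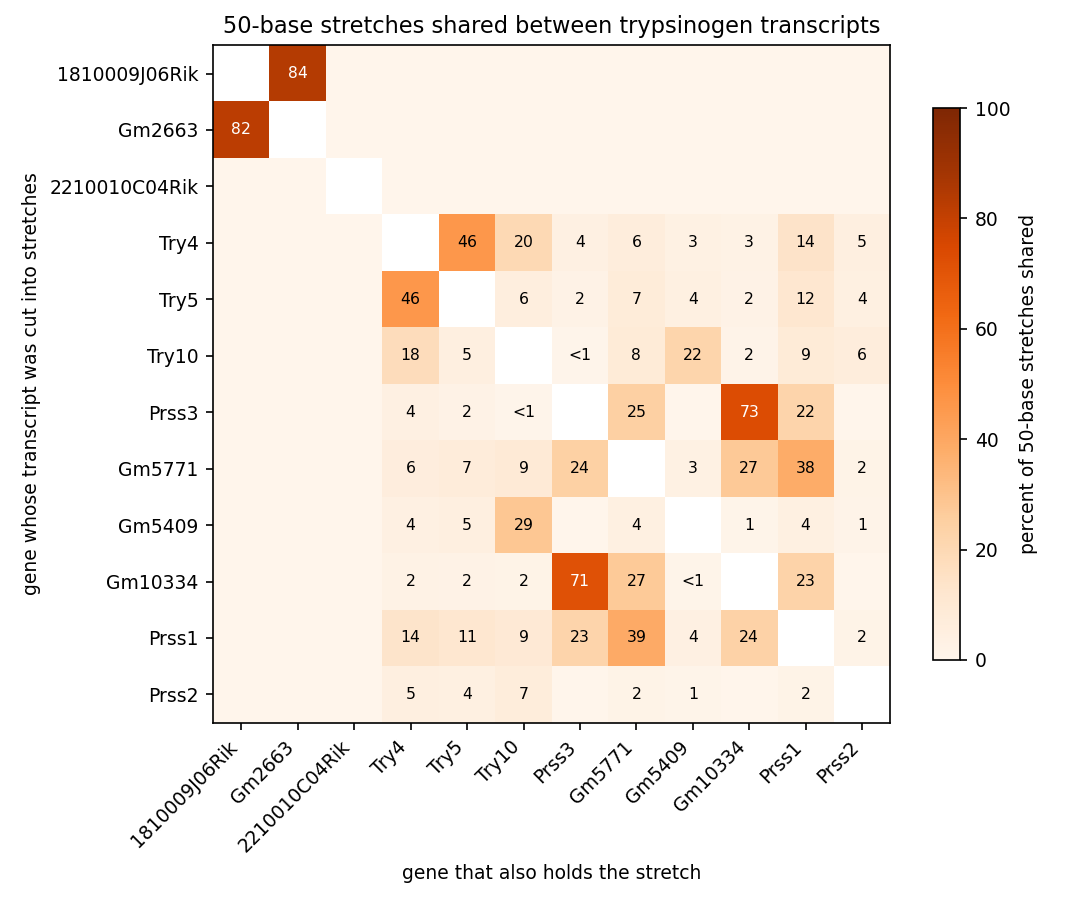
Percent of the 50-base stretches of each transcript (rows) that also occur in another trypsinogen transcript (columns), with genes in their order along the chromosome; blank cells share none. The darkest cells join 1810009J06Rik with Gm2663 (83.8% and 82.3%) and Gm10334 with Prss3 (71.4% and 73.1%), and 2210010C04Rik shares no stretch.

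The libraries held between 15641797 and 20614531 counts on genes. The labelled islet identity was checked against marker genes: the 8 β-cell markers together took 0.15% to 0.64% of the counts in db/db mice and 0.763% to 4.33% in db/m mice, and the 22 acinar markers in the table, with no trypsinogen among them, 63.2% to 67.7% and 47.2% to 61.5%. Acinar RNA thus outweighed β-cell RNA in every library. The study stained isolated cells for insulin, found most of them positive and took the islets used for sequencing as free of acinar cells. Staining of cells for a protein and shares of RNA counts are unlike measures. In db/m mouse 1 the acinar share was lowest (47.2%) and the β-cell share highest (4.33%), and the TMM normalization factor, which adjusts library sizes so that most genes agree, was 1.75 there against 0.605 in db/db mouse 1 and 0.919 to 1.06 in the other mice. Of the 22 acinar markers 21 had a log2 fold change above 0, with a median of 0.71, but none passed edgeR's quasi-likelihood test at an adjusted p of 0.05 and 1 had an unadjusted p under 0.05 (DESeq2 called 2 of the 22, Pnliprp1 and Sycn, both higher in db/db mice and named after their values were seen). Of the 8 β-cell markers, 3 had an adjusted p under 0.05 in edgeR, all 3 lower in db/db mice. In such bulk samples fewer cells of a type and less RNA per cell cannot be told apart.

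When the groups were compared, 8 of the 10 members were higher in every db/db mouse than in every db/m mouse, whereas Try4 and Try5, which hold most of the counts, overlapped between the groups. Among all tested genes the 3 db/db values lay above the 3 db/m values in 8.53%. By the edgeR quasi-likelihood test, 6 of the 10 members passed the threshold (adjusted p under 0.05) with the higher level in db/db mice, as did 0.133% of all 12760 tested genes. This count is no test of the members, which were chosen by their values in these same mice. The count was 8 with DESeq2 and 3 with the replicate block, and it fell to 3 without any 1 of the db/db mice. It was 6, 5 and 7 without db/m mouse 1, 2 and 3. Of all 12760 tested genes, DESeq2 called 148 higher in db/db mice and the replicate block 4. Without db/db mouse 1, 2 and 3 the genes called higher were 7 of 13735, 3 of 13535 and 4 of 13492. Without db/m mouse 1, 2 and 3 they were 14 of 12984, 10 of 13440 and 43 of 13640. Nothing about the members is read from any of these counts. The median log2 fold change was 3.29 over the 10 members and -0.00093 over all tested genes.

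Gm10334 had the largest difference of the 10 members. It held 10736, 9088 and 8522 counts in the db/db libraries and 69, 59 and 83 in the db/m libraries. Scaled to TMM-normalized library sizes (CPM), these were 862, 543 and 573 in db/db mice and 2.53, 3.44 and 4.49 in db/m mice. The lowest db/db value was 121-fold above the highest db/m value, and the spread within either group was small beside this gap. This is a log2 fold change of 7.57 (standard error 0.43).

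Gm5771, which Gm5409 separates from Gm10334 and which has 3 aspartate codons, came next. Its levels were 2034, 1619 and 1367 CPM in db/db mice and 13.4, 22.5 and 40.3 CPM in db/m mice. The lowest db/db value was 33.9-fold above the highest db/m value. The log2 fold change was 6.04 (standard error 0.53).

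The pair with the shortest aspartate run also stood apart between the groups. Gm2663 had 545, 436 and 286 CPM in db/db mice and 15.3, 34.0 and 22.1 CPM in db/m mice. 1810009J06Rik had 703, 596 and 387 CPM in db/db mice and 27.7, 89.7 and 33.0 CPM in db/m mice. In both genes db/m mouse 2 was the highest of its group and db/db mouse 3 the lowest of its own. The log2 fold changes were 4.15 (standard error 0.42) for Gm2663 and 3.49 (standard error 0.51) for 1810009J06Rik.

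Prss1 and Prss3, the partners of Gm5771 and Gm10334, were less far apart. Prss1 had 1911, 1873 and 1226 CPM in db/db mice and 132, 283 and 169 CPM in db/m mice. Prss3 had 2094, 1446 and 1483 CPM in db/db mice and 84.1, 156 and 205 CPM in db/m mice. Neither gene overlapped between the groups, and the log2 fold changes were 3.10 (standard error 0.41) and 3.50 (standard error 0.43).

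Try10 and the annotated pseudogene Gm5409 differed by the least among the 8. Try10 had 1349, 802 and 930 CPM in db/db mice and 173, 317 and 465 CPM in db/m mice. Gm5409 had 81.4, 39.6 and 55.3 CPM in db/db mice and 8.81, 13.6 and 23.99 CPM in db/m mice. The lowest db/db value was 1.73-fold above the highest db/m value for Try10 and 1.65-fold for Gm5409. Their log2 fold changes were 1.69 (standard error 0.42) and 1.93 (standard error 0.41).

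Try4 and Try5 overlapped between the groups. Try4 had 47502, 17819 and 28728 CPM in db/db mice and 14615, 32500 and 29055 CPM in db/m mice. Try5 had 60788, 27006 and 27213 CPM in db/db mice and 11021, 28841 and 24835 CPM in db/m mice. In both genes the highest value was that of db/db mouse 1 and the lowest that of db/m mouse 1, the libraries with the lowest and the highest TMM factor. Their log2 fold changes were 0.30 (standard error 0.60) and 0.83 (standard error 0.62), both smaller than the spread between mice, and that of Try4 became -0.28 when library size replaced the TMM factors, -0.49 when the acinar marker score was a covariate (Try5 -0.017) and -0.12 without db/db mouse 1.

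The other abundant trypsinogen genes lay close to Try4 and Try5. Prss2 reached 32458 ± 14648 CPM in db/db and 21045 ± 7743 CPM in db/m mice (SD, n = 3). Its log2 fold change of 0.63 had a standard error of 0.58 and edgeR gave an adjusted p of 0.642. For 2210010C04Rik the log2 fold change of 0.83 had a standard error of 0.62, with an adjusted p of 0.559 by edgeR.

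**Figure D2:**
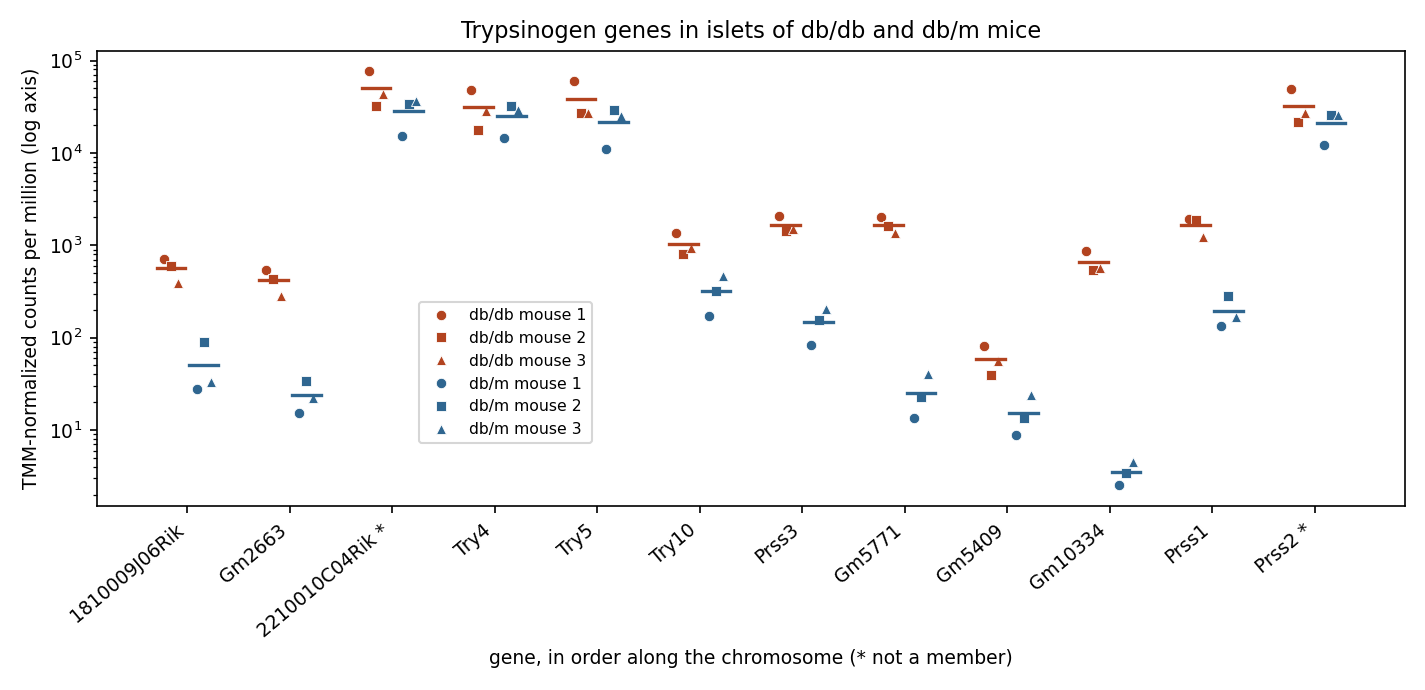
Level of each trypsinogen gene in each mouse in TMM-normalized CPM (log axis), with genes in their order along the chromosome; points are mice, bars are group means, and an asterisk marks genes that are no members. The db/db points of 8 members lie above all db/m points, from 543 against 4.49 CPM at the nearest for Gm10334 to 39.6 against 23.99 CPM for Gm5409, while Try4, Try5, Prss2 and 2210010C04Rik overlap.

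Per length of transcript, the members fell into an abundant and a scarce class in both groups. In db/db mice Try5 (47860 ± 24275 CPM per kb, SD, n = 3) and Try4 (39236 ± 18792) did not differ beyond their spread. Prss1 (2069 ± 477), Prss3 (2062 ± 448) and Gm5771 (2030 ± 409) followed at nearly the same level, and Try10 (1154 ± 322) came below them by more than the SDs. Gm10334 (795 ± 212), 1810009J06Rik (656 ± 188) and Gm2663 (485 ± 150) each overlapped the gene before. Gm5409 was lowest and apart, at 84.2 ± 30.3 CPM per kb.

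In db/m mice the order was another. Try4 (31777 ± 11876 CPM per kb, SD, n = 3) and Try5 (26923 ± 11672) again did not differ beyond their spread. Try10 (358 ± 164), Prss1 (241 ± 97.6) and Prss3 (183 ± 75.0) came next and overlapped. The lower end was formed by 1810009J06Rik (58.6 ± 40.1), Gm5771 (30.8 ± 16.6), Gm2663 (27.4 ± 10.9), Gm5409 (22.2 ± 11.1) and, apart from all others, Gm10334 (4.20 ± 1.18). Gm10334 thus stood below Gm5409 in db/m mice and above it in db/db mice.

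The share of each member in the counts of the 10 members does not depend on how libraries are scaled to each other. The cluster as a whole took 7.12%, 5.18% and 5.71% of all counts in db/db mice and 4.54%, 6.62% and 5.33% in db/m mice, so that the groups overlapped. Summed to 1 row and fitted with all other genes, the cluster had a log2 fold change of 0.70, which was 0.13 with library size in place of TMM factors, -0.086 when the acinar marker score was a covariate and 0.27 without db/db mouse 1. Within the cluster the 8 members other than Try4 and Try5 took 8.13% of the counts in db/db mouse 1 (95% Clopper-Pearson interval 8.08% to 8.17%), 14.1% in mouse 2 (14.02% to 14.2%) and 10.1% in mouse 3 (10.1% to 10.2%). In db/m mice they took 1.75%, 1.48% and 1.76%, with intervals between 1.45% and 1.78%. These intervals cover counting error only, and the grouping into 8 and 2 members was made after their values were seen. The means were 10.8% ± 3.04 (SD, n = 3) and 1.66% ± 0.16 (SD, n = 3).

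Among the 8, the shares of Prss1 (2.39% ± 1.05 of the cluster counts in db/db against 0.423% ± 0.103 in db/m mice, SD, n = 3), Gm5771 (2.34% ± 0.70 against 0.0537% ± 0.0187) and Prss3 (2.31% ± 0.501 against 0.315% ± 0.0624) were nearly equal in db/db mice and unequal in db/m mice. The share of Gm10334 was 0.731%, 1.04% and 0.921% in db/db mice. In db/m mice it was 0.00971%, 0.00552% and 0.00819%, and the 95% Clopper-Pearson intervals reached from 0.0042% to 0.0123%. Try10 took 1.39% ± 0.215 in db/db and 0.674% ± 0.169 in db/m mice, and was the largest of the 8 in each db/m mouse. The share of Try4 was lower in every db/db mouse (40.3%, 34.1% and 46.2%) than in every db/m mouse (56.0%, 52.2% and 53.0%), whereas that of Try5 overlapped (49.0% ± 4.59 and 44.6% ± 2.12, SD, n = 3).

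**Figure D3:**
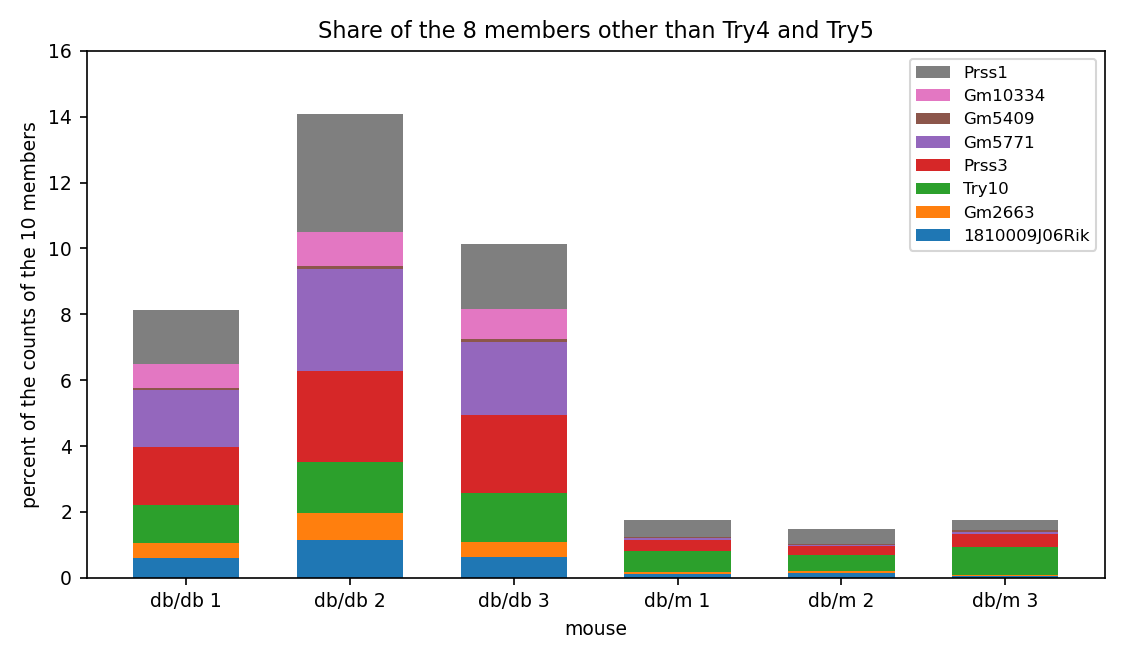
Percent of the counts of the 10 members taken by each of the 8 members other than Try4 and Try5 in each mouse, stacked; the remainder to 100% is Try4 and Try5. The stacks reach 8.13% to 14.1% in db/db mice and 1.48% to 1.76% in db/m mice, where Gm10334, Gm5771 and Gm2663 are too thin to see or nearly so.

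Ratios within near-identical pairs are free of both library scaling and the amount of acinar RNA shared by the genes of a pair. The ratio of Gm10334 to Prss3 counts was 0.412, 0.376 and 0.386 in db/db mice and 0.0301, 0.0221 and 0.0219 in db/m mice. The ratio of Gm5771 to Prss1 was 1.06, 0.864 and 1.11 in db/db mice and 0.101, 0.0796 and 0.239 in db/m mice. Both ratios were thus higher in every db/db mouse, on average 15.8-fold and 7.26-fold. Gm2663 to 1810009J06Rik gave 0.776, 0.732 and 0.739 in db/db mice and 0.552, 0.379 and 0.672 in db/m mice, a mean 1.40-fold higher. Try5 to Try4 was 1.25 ± 0.286 against 0.832 ± 0.0695 (SD, n = 3), with the groups apart by 0.947 to 0.887 at the nearest. Gm5409 to Try10 overlapped between the groups (0.0564 ± 0.00611 and 0.0485 ± 0.00478, SD, n = 3). How far a different split of shared reads moves these ratios was not tested.

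The sums of pairs do not depend on how reads were split within them, but can depend on how reads were split between pairs. Of the 50-base stretches of Gm5771, 27.4% also occurred in Gm10334 and 24.3% in Prss3. For Prss1 these shares were 23.6% and 22.6%, and 13.6% occurred in Try4. Reads that match genes of different pairs could enter either sum, and how far this moves the folds was not tested. Gm2663 and 1810009J06Rik shared no such stretch with other genes of the cluster. Gm10334 and Prss3 together had 2334 ± 540 CPM in db/db and 152 ± 61.9 CPM in db/m mice (SD, n = 3), 15.4-fold apart. For Gm5771 and Prss1 the sum was 3343 ± 688 against 220 ± 80.6 CPM (15.2-fold), and for Gm2663 and 1810009J06Rik 984 ± 291 against 74.0 ± 43.5 CPM (13.3-fold). The 3 sums therefore differed between the groups by similar folds, although the single members of these pairs ranged from 8.57-fold (Prss1) to 189-fold (Gm10334). None of the 3 sums overlapped between the groups, which adds nothing, since neither gene of any of these pairs overlapped. Try4 and Try5 summed to 69685 ± 33892 and 46956 ± 18836 CPM, and overlapped.

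**Figure D4:**
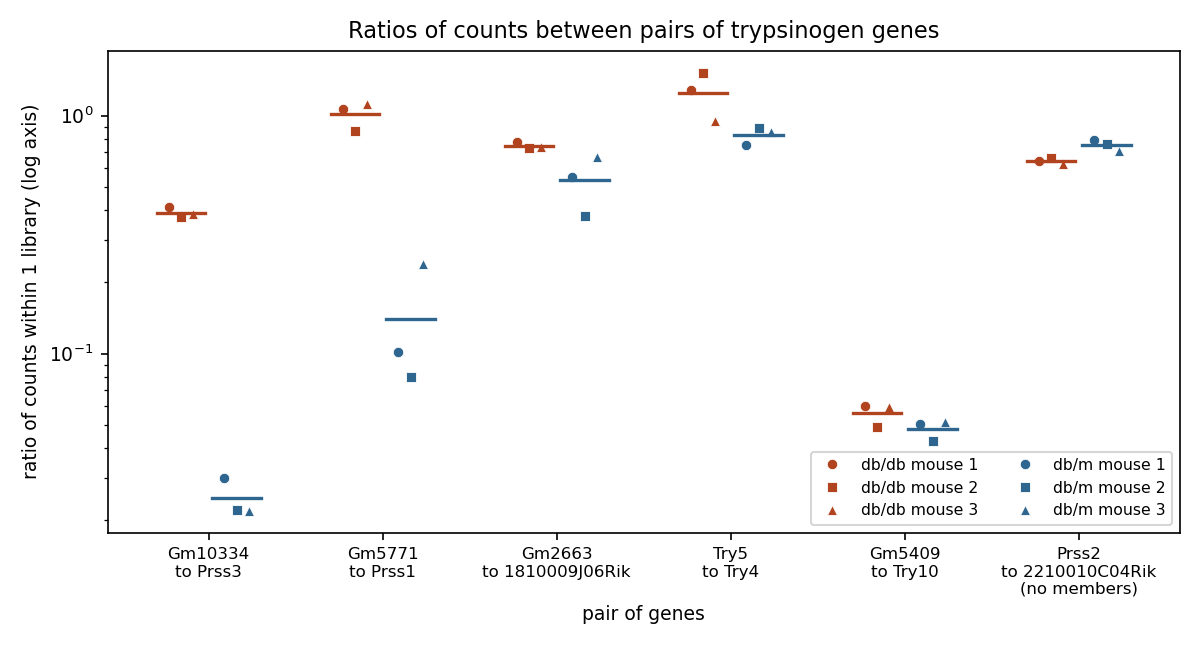
Ratio of the counts of a pair of genes within each library (log axis); points are mice and bars are group means. Gm10334 to Prss3 and Gm5771 to Prss1 lie far apart between db/db (0.376 to 0.412 and 0.864 to 1.11) and db/m mice (0.0219 to 0.0301 and 0.0796 to 0.239), and the other pairs differ little.

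Since acinar RNA differed between the libraries, the members were also set against the summed counts of the 22 acinar markers. Per 1000 acinar marker counts, Gm10334 had 0.770, 0.835 and 0.832 counts in db/db mice and 0.00935, 0.00636 and 0.00709 in db/m mice, 107-fold apart on average. On this scale Gm5771 differed by 40.6-fold, Gm2663 by 10.2-fold, Prss3 by 6.77-fold, 1810009J06Rik by 6.56-fold, Prss1 by 4.97-fold, Gm5409 by 2.24-fold and Try10 by 1.93-fold. The groups stayed apart for each of the 8 genes, which were grouped after their values were seen. The share of all genes that stay apart on this scale was not computed. Try5 was level (45.1 ± 8.02 against 44.4 ± 7.81 counts per 1000, SD, n = 3), and Try4 was lower in every db/db mouse (42.4, 27.4 and 41.7) than in every db/m mouse (54.0, 60.2 and 45.8). All 10 members together had 91.9 ± 12.6 and 99.4 ± 14.6 counts per 1000 acinar marker counts (SD, n = 3).

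Within the groups the members varied together to an unequal degree. All 10 were above their group mean in db/db mouse 1 and below it in db/m mouse 1, and r of the deviations of log2 CPM from the group means over 6 mice was positive for every pair of members, up to 0.99 for Prss3 with Try10. Prss1 went most closely with 1810009J06Rik (r = 0.97) and Gm2663 (r = 0.97), with which it shares no stretch of 50 bases. With Gm5771, its nearest relative in sequence, r was 0.38, and the lowest r among members was 0.12, between 1810009J06Rik and Gm5409. Gm5771 went instead with Prss3 (r = 0.95), Try10 (r = 0.94) and Gm10334 (r = 0.90). When shares of the counts of the 12 trypsinogen genes were used, which removes the common scaling of a library, r was 0.90 and 0.98 for Prss1 with 1810009J06Rik and Gm2663, 0.96 and 0.95 for Gm5771 with Prss3 and Try10, and 0.24 for Prss1 with Gm5771. On shares r was no longer positive for every pair of members. It was -0.70 for 1810009J06Rik with Gm5409, the lowest among members, -0.67 for Try4 with Try5 and -0.65 for Gm5771 with Try4. These are descriptions over 6 mice of 2 groups, and the genes compared share the libraries.

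The sequence before the transcription start is shown for members of the 2 pairs with the largest changes in ratio and for the abundant Try4, because the members of these pairs are the ones whose ratio differed most. Each line holds 120 bases before the RefSeq start (GRCm38.p6, 5′ to 3′). Capitals mark 3 motifs searched on both strands: the E-box CANNTG, which the acinar factor PTF1 and other helix-loop-helix factors bind, the TC-box TGGGAA, the other part of the PTF1 site, and TATAAA.
Gm10334 (chr6:41446098-41446217, minus strand): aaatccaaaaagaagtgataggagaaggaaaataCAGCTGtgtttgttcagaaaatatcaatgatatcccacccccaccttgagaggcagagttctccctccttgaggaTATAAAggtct
Prss3 (chr6:41377614-41377733, minus strand): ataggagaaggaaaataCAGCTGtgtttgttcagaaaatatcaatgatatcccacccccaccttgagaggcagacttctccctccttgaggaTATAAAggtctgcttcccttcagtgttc
Gm5771 (chr6:41392236-41392355, plus strand): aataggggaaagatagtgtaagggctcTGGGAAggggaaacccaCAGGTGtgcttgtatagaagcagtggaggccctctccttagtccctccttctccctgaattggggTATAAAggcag
Prss1 (chr6:41458810-41458929, plus strand): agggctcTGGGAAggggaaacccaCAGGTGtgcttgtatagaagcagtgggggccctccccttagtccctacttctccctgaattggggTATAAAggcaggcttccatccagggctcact
Try4 (chr6:41302152-41302271, plus strand): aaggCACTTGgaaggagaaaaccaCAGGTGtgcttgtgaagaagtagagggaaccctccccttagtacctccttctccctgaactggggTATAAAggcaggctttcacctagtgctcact
Of 32851 promoters of the same length, 40.2% held an E-box, 10.4% TGGGAA, 6.34% TATAAA and 0.886% both CAGGTG and TGGGAA, each on either strand. Gm5771 and Prss1 held CAGGTG together with TGGGAA, Try4 held CAGGTG without TGGGAA, and Gm10334 and Prss3 held a CAGCTG E-box and no TGGGAA in this window. The annotated starts of Gm10334 and Prss3 were 17 bases out of register, and at that offset 226 of 233 promoter bases were identical (97.0%). For Gm5771 and Prss1 the offset was 20 bases and 226 of 230 bases were identical (98.3%). A match of letters is a description and shows no binding.

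Of the nearest tested genes on either side of the cluster, Prss2 is a trypsinogen gene. Whether the pseudogene Gm4744 is related to the members in sequence was not examined. On the low side, the pseudogene Gm4744 had 155, 194 and 86 counts in db/db mice and 55, 449 and 34 in db/m mice, with the highest count in db/m mouse 2, where 1810009J06Rik and Gm2663 were also the highest of their group. The standard error of its log2 fold change was 0.88 (adjusted p = 0.9997 from edgeR). For Mgam, the maltase-glucoamylase gene, and Ssbp1, a mitochondrial DNA-binding protein, the log2 fold changes were 0.81 and 0.13 (adjusted p = 0.565 and 0.846 from edgeR). On the high side, beyond Prss2, the T cell receptor beta constant genes Trbc1 and Trbc2 had at most 46 counts in any library, with Trbc1 higher in every db/db than in every db/m mouse, and log2 fold changes of 1.96 and 2.35 (adjusted p = 0.213 and 0.452 from edgeR).

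Genes that trypsin acts on, genes that act on trypsin or trypsinogen, and acinar transcription factors were compared with the same test. Of 26 tested genes in 5 lists, edgeR called 0, with 2 at an unadjusted p under 0.05, and DESeq2 called 0 as well. Among the 11 tested zymogens that trypsin activates, all of which also serve as acinar markers here, the log2 fold changes ran from 0.27 to 1.29 with a median of 0.71. The chymotrypsinogen gene Ctrb1 had 180856 ± 52148 CPM in db/db and 94778 ± 28535 CPM in db/m mice (SD, n = 3; log2 fold change 0.93, adjusted p = 0.550 from edgeR). For the carboxypeptidase genes Cpa1 and Cpb1 and the elastase gene Cela2a the log2 fold changes were 0.60, 0.71 and 0.58 (adjusted p = 0.693, 0.637 and 0.693 from edgeR). The log2 fold changes of Try4 and Try5, 0.30 and 0.83, lay within this range, and those of the other 8 members above it.

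Of the proteases that act on trypsinogen or trypsin, the enteropeptidase gene Tmprss15 had 0 counts in every library, which is at most 0.241 CPM when 3 counts are taken as the floor. The lysosomal proteases Ctsb, which can activate trypsinogen, and Ctsl and Ctsd had log2 fold changes of 0.57, 0.46 and 0.67 (adjusted p = 0.408, 0.586 and 0.286 from edgeR). Among trypsin inhibitors Spink3, the pancreatic secretory inhibitor, had 180, 51.8 and 122 CPM in db/db mice and 54.0, 100 and 123 CPM in db/m mice, with overlapping groups and a log2 fold change of 0.35 (adjusted p = 0.752 from edgeR). Serpini2, Spint2 and Spint1 had log2 fold changes of 0.57, 0.38 and 0.35 (adjusted p = 0.617, 0.513 and 0.565 from edgeR). Serpina1a to Serpina1e, A2m and Pzp did not pass the filter on low counts. The protease-activated receptor F2rl1, which trypsin cleaves, had 2.53 ± 0.827 and 3.06 ± 1.05 CPM (SD, n = 3; log2 fold change -0.29, adjusted p = 0.784 from edgeR), and F2r, the thrombin receptor, a log2 fold change of 0.59 (adjusted p = 0.758 from edgeR).

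The acinar transcription factors, which drive digestive enzyme genes, were measured too. Their 6 genes had log2 fold changes of 0.36 to 0.76, with a median of 0.58. Xbp1, a factor of secretory cells, had the largest (343 ± 82.8 against 202 ± 34.9 CPM, SD, n = 3; adjusted p = 0.265 from edgeR). For Rbpjl, a subunit of PTF1, and Nr5a2 and Bhlha15 the log2 fold changes were 0.68, 0.63 and 0.36 (adjusted p = 0.359, 0.478 and 0.646 from edgeR).

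Likeness to Gm10334 was taken as Pearson r of log2(CPM + 1) over the 6 mice. Outside the cluster it was highest for Naip6 (r = 0.997), Cyhr1 (0.995), Fxyd6 (0.993), Abcc3 (0.991) and Rtkn (0.988). These were chosen for this likeness from the tested genes with a mean CPM of at least 1. The likeness holds little beyond 2 groups that are far apart. Naip6, an inflammasome sensor gene, had 51, 68 and 54 counts in db/db libraries and 0 in each db/m library, at least 26.4-fold higher when 3 counts per db/m library are taken as the floor. Abcc3, an organic anion transporter gene, had 7.47 ± 0.253 CPM in db/db and 3.33 ± 0.392 CPM in db/m mice (SD, n = 3). Within the cluster r with Gm10334 was 0.995 for Gm5771, 0.987 for Prss3, 0.986 for Gm2663 and 0.307 for Try4.

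**Figure D5:**
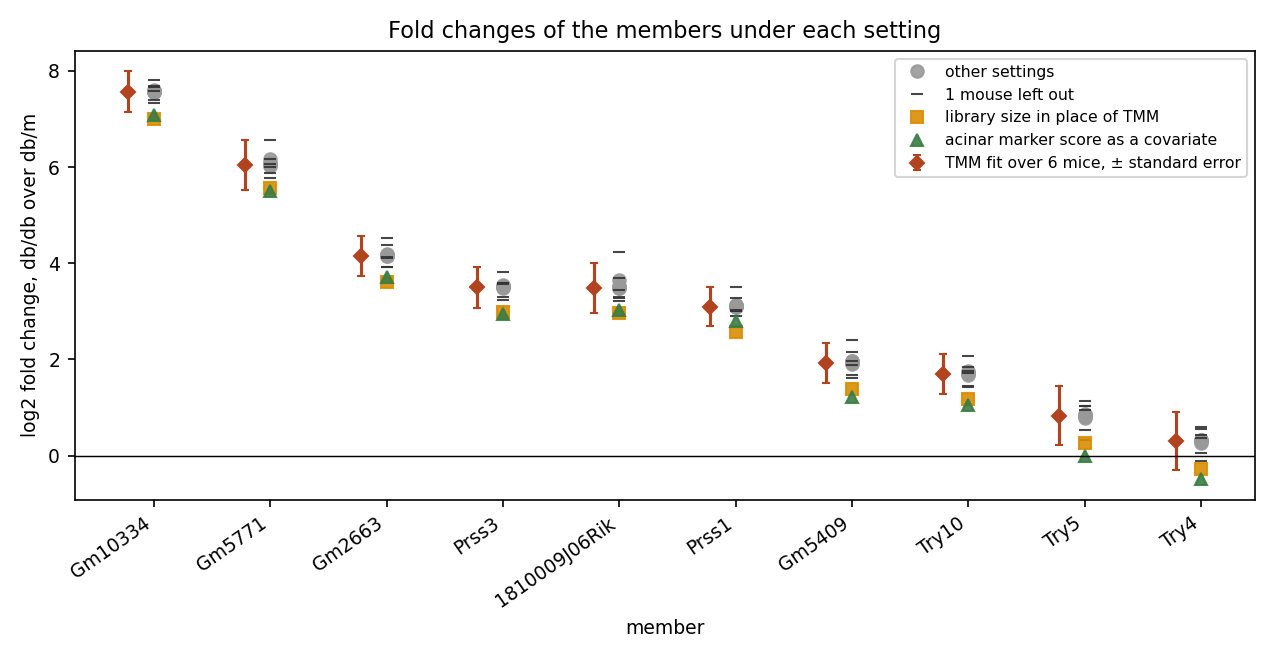
Log2 fold change (db/db over db/m) of each member in the TMM fit over 6 mice (diamonds, with standard error) and under 14 other settings. Gm10334 stays between 6.99 and 7.80 and Gm5771 between 5.50 and 6.55, while Try4 lies on both sides of 0 (-0.49 to 0.59) and Try5 reaches -0.017 when the acinar marker score was a covariate.

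Under 14 other settings, among them other scalings, filters, covariates and each mouse left out, the 8 members other than Try4 and Try5 kept a log2 fold change above 0. These 8 were grouped after their values in the same mice were seen. Their groups did not overlap, so leaving out 1 mouse could hardly change the sign, and this is a description only. The ranges were 3.60 to 4.53 for Gm2663, 2.96 to 4.24 for 1810009J06Rik, 2.57 to 3.50 for Prss1, 2.95 to 3.82 for Prss3, 1.05 to 2.08 for Try10 and 1.23 to 2.40 for Gm5409. Each lowest value came from library size in place of TMM or from the acinar marker score, and 1810009J06Rik reached 4.24 without db/m mouse 2, the mouse in which it was highest of its group. Library size in place of TMM moved the median of all tested genes by -0.59, close to the shift of each member.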

How the data were processed

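The authors mapped the reads to mm10 (TopHat in the methods of the study; the submitters' processing notes name HISAT2 2.0.4) and deposited raw counts per gene for each mouse, without normalization. The counting program, gene annotation and strand setting are not given in the sources used here. Members, lists and settings were chosen with earlier results of these data known. The named genes were the members, Prss2, the list genes with the highest mean CPM, the nearest tested neighbours and the 5 genes most like Gm10334; 2210010C04Rik is the tested gene between the members.

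Counts were fitted in R 4.3.3 with edgeR 4.0.16 (filterByExpr, TMM, quasi-likelihood F-test, Benjamini-Hochberg over 12760 genes, threshold 0.05). Standard errors are the absolute log2 fold change over the root of F. DESeq2 1.42.0 and 13 other settings (scaling, filters, a replicate block, the acinar marker score, each mouse left out) were alternatives. Counts of replicates differed by 26.5 to 147 chi-square units per degree of freedom. The labels give only a group and a number for each mouse, so p-values measure the spread between these samples, which may be technical in part. Transcripts were taken from RefSeq, and that of Gm5409 from GENCODE, on GRCm38, and compared with Python 3.11.15 and Biopython 1.88; figures were drawn with matplotlib 3.10.9. The fits were tested on simulated data. Promoters of 1810009J06Rik, Try5 and Try10 and protein sequences were not used here. Circular RNAs were not analysed here.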

Additional observations from a re-analysis of the deposited data

How the results depend on the processing

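Genes passing the adjusted p of 0.05 numbered 79 in the TMM fit, 707 with DESeq2, 21 with library size, 52 with upper-quartile factors, 888 when all genes with 1 count or more were tested, and 10 to 333 when 1 mouse was left out (lowest without db/db mouse 2, highest without db/m mouse 3). A replicate block in the model left 16. Same-numbered mice had deviations from their group means that correlated at -0.527, -0.195 and -0.323 across genes. No pairing by number showed in these values, but with 3 mice per group they cannot exclude that same-numbered mice shared a batch. Summed to 1 row, the cluster had a log2 fold change of 0.70, of 0.67 with the replicate block and of -0.086 with the acinar score in the model; without 1 mouse it was 0.27 to 0.97. The share of the 8 members other than Try4 and Try5 was 10.8% in db/db and 1.66% in db/m mice, 7.60% and 1.15% with Prss2 added, and 5.22% and 0.813% with 2210010C04Rik added as well, a setting chosen after seeing the data; without 1 mouse it was 9.13% to 12.1% and 1.61% to 1.75%. When all genes with 1 count or more were tested, 1 gene of the pathway lists was called, Serpina1e (named after its values were seen), with 23 and 6 counts in db/db mice 2 and 3 and 0 in the other mice. Counting noise limits the db/m values of Gm10334, which rest on 59 to 83 counts.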

Other observations

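The 4 duct markers had a median log2 fold change of 0.88 and the 5 stromal markers of 1.29, all above 0, with no adjusted p under 0.05 in edgeR (2 and 0 at an unadjusted p under 0.05); they took at most 0.011% and 0.00842% of any library. The 2 tested α-cell markers had a median log2 fold change of -1.03 and Ppy one of -0.93, with none at an adjusted or unadjusted p under 0.05 in edgeR. The α-cell markers took 0.0173% to 0.0537% of the counts in db/db and 0.0164% to 0.199% in db/m mice, the δ-cell markers at most 0.0424%, Ppy at most 0.0476%, the endothelial markers at most 0.00491% and the leukocyte markers at most 0.00583%. Their part in the values of the trypsinogen genes was not tested.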
